A study of Mus musculus with 6 samples.

Results

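Ribosomal protein pseudogenes are the copies of ribosomal protein genes whose mouse symbols begin with Rpl or Rps and contain "-ps". They were read in RNA from tumors of the mouse mammary carcinoma line 4T1. Of 300 genes with such a symbol, 217 had at least 10 read pairs summed over the 6 libraries and were kept, out of 54146 gene rows in all. The 83 left out had fewer pairs, 33 of them none. The kept genes comprise 137 Rpl and 80 Rps copies, and 58 different parent genes are named in their symbols. In the GENCODE M21 annotation 205 of them are processed pseudogenes, 7 are transcribed processed pseudogenes and 5 are listed as protein-coding. They lie on 20 chromosomes. The members were thus chosen by their summed reads, and their levels are given as a description. The difference between genotypes was no part of that read limit, though the gene set was chosen with earlier results of these data known. Just inside the limit, Rpl23a-ps4, Rpl26-ps3 and Rpl9-ps3 had 10 pairs each, and just outside it Rpl21-ps5, Rpl31-ps5, Rpl7l1-ps1 and Rps2-ps4 had 9.

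The 3 wild-type libraries came from tumors of unmodified 4T1 cells and the 3 knockout libraries from tumors of Mki67-/- 4T1 cells, knocked out for the gene that encodes Ki-67, a marker of proliferating cells. In both groups the cells had grown for 3 weeks in a mammary fat pad of nude mice, a strain without a thymus. RNA was total RNA of the whole tumor, mouse host cells included. The labels give neither the number of knockout clones nor the animal behind each library, so a clone difference cannot be told apart from the genotype, and the p-values measure only the spread between these samples. In such bulk RNA, fewer cells of a type and less RNA per cell cannot be told apart.

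A processed pseudogene arises when the mRNA of a gene is copied back into DNA and inserted elsewhere in the genome, so the copy lacks the introns of its parent. Ribosomal protein genes, whose abundant mRNAs encode the proteins of the large (Rpl) and small (Rps) ribosomal subunit, have left many such copies in mammalian genomes. Most copies are not thought to make a protein. A young copy can be so like the exons of its parent that a short read fits both places, and a read of the parent with a mismatch can fit the copy better.

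The copies differ widely in how far their sequence has moved from the parent. For 216 of them the transcript could be aligned to the closest ribosomal protein gene, and identity ran from 80.8% to 100%, with a median of 97.7%. In 14 copies it was 100%. Identity was counted over the aligned bases alone, leaving out gaps and unaligned ends, and copies at 100% are called identical below. The sequences here, taken from GENCODE M21 transcripts on GRCm38, show the parents and copies on which the results turn. Each stretch of 80 bases is written 5′ to 3′ on the strand of the parent mRNA, and capitals mark the bases that differ from the parent. The first set, from coding bases 218 to 297 of Rps6, a protein of the small subunit, sets the only copy called lower in the knockout, Rps6-ps1 (chr15:76337616-76338362, plus strand), beside a copy of the same parent called higher, Rps6-ps3 (chr9:53689534-53690283, minus strand).
Rps6: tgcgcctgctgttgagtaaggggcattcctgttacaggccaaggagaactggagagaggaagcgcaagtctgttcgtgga
Rps6-ps1: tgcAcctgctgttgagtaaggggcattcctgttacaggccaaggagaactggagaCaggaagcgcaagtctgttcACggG
Rps6-ps3: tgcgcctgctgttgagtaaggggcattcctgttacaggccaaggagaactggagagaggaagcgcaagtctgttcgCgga
The second set, coding bases 125 to 204 of Rps2, shows Rps2-ps5 (chr14:69158671-69159519, plus strand), the copy with the largest increase, and Rps2-ps13 (chrX:52898588-52899469, plus strand), a closer copy that was also called higher.
Rps2: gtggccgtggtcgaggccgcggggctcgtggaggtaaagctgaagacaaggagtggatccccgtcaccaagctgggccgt
Rps2-ps5: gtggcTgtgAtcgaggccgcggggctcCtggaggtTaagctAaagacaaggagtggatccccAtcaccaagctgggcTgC
Rps2-ps13: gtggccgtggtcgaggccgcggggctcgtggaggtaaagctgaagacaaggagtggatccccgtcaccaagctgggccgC
The last pair, the first 80 coding bases of Rpl10a, shows a copy with no differing base among those aligned to its parent, Rpl10a-ps1 (chr1:64993951-64994604, minus strand).
Rpl10a: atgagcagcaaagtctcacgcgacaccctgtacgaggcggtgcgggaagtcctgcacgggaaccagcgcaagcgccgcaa
Rpl10a-ps1: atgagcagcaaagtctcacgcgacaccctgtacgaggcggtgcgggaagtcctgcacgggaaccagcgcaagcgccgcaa
In the first 2 sets the upper copy differs from its parent at 5 and 8 bases and the lower copy at 1 base. There the stretch was chosen as the one in which the upper copy differs most from its parent. These counts therefore do not describe the whole copies. The last pair does not differ at all.

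Reads were 50 bases long and paired. The share of a copy's 50-base stretches that occur in no other GENCODE M21 transcript, on either strand, was therefore taken as a measure of how much of the copy can be read on its own. Its median over the 217 copies was 52.6%. It was 0% in 20 copies, to which 44581 pairs had nevertheless been assigned, and 14 of these 20 stood above 1 CPM, which is 1 pair in every 1000000 gene pairs of a library. The measure covers annotated transcripts only, not the rest of the genome.

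Gene pairs per library numbered 37065778 to 38399826 in wild type and 22081970 to 30772729 in the knockout, so that 3 pairs, the most that a count of 0 allows, correspond to 0.0781 to 0.136 CPM. This limit covers counting error only. Mki67 stood at 359.6, 395 and 325 CPM in wild type and at 98.7, 117 and 139 CPM in the knockout, with no overlap. Its log2 fold change was -1.61 (SE 0.14, adjusted p = 6.79e-05). The groups also differ in markers of other cell types. All 5 macrophage markers fell (summed level 4146 to 4974 CPM in wild type, 653 to 717 CPM in the knockout), and all 4 fibroblast markers (1909 to 2584 against 3730 to 7641 CPM) and all 3 keratinocyte markers (59.4 to 97.1 against 683 to 1291 CPM) rose. Of the 6 mammary epithelial markers 5 rose (2814 to 2932 against 5458 to 5831 CPM), as did all 3 adipocyte markers (44.8 to 76.8 against 167 to 419 CPM), all 3 skeletal muscle markers (6.55 to 10.8 against 16.9 to 25.0 CPM) and 2 of 3 neutrophil markers (211 to 256 against 287 to 406 CPM). The 3 endothelial markers did not pass (159.6 to 222 against 139 to 202 CPM, adjusted p = 0.655 to 0.838), and no marker was at 0 in any library. Whether these shifts contribute to the pseudogene values was not tested.

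The knockout libraries are not alike in technical measures. Unmapped pairs were 33.9%, 32.4% and 31.2% of all pairs in wild type and 30.8%, 54.6% and 52.7% in the knockout, which sets knockout libraries 2 and 3 apart. Of the uniquely mapped pairs, 10.1%, 11.1% and 9.24% lay outside annotated exons in wild type and 14.2%, 9.91% and 18.9% in the knockout. This second measure, STAR's N_noFeature row, was highest in knockout library 3 and within the wild-type range in knockout library 2. Both measures are set beside the pseudogenes below, since they do not follow the same order.

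Together the 217 copies took up only a small part of each library, and 1 copy dominated it. Their summed level was 2738, 2512 and 2337 CPM in wild-type libraries 1, 2 and 3 (mean ± SD 2529 ± 201, n = 3) and 3017, 2561 and 2751 CPM in knockout libraries 1, 2 and 3. The groups overlapped, and the copies made up 0.228% to 0.301% of the gene pairs of a library. Rps2-ps10, a copy of the small-subunit gene Rps2 on chromosome 18, within an intron of Pde6a and on the opposite strand, held 30.2% to 36.5% of the summed level in the wild-type libraries and knockout library 1. It held 13.1% and 13.6% in knockout libraries 2 and 3. Without it the sum was 1871, 1752 and 1626 CPM in wild type (mean ± SD 1749.5 ± 122, n = 3) and 1915, 2226 and 2377 CPM in the knockout, and each knockout library stood above each wild-type library.

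Levels spanned several orders of magnitude. Averaged over the 6 libraries, 2 copies exceeded 100 CPM, 28 exceeded 20 CPM and 85 were at or below 1 CPM, and 24 copies had no pair in at least 1 library. The order of the 12 most abundant was Rps2-ps10, Rpl3-ps1, Rpsa-ps10, Rpl28-ps3, Rpl30-ps1, Rpl17-ps4, Rpl10a-ps1, Rpl36-ps12, Rps10-ps1, Rps16-ps2, Rpl31-ps11 and Rpl9-ps7. They carried 57.4% to 59.8% of the summed level in wild type, 61.7% in knockout library 1, and 45.1% and 43.6% in knockout libraries 2 and 3. Rpsa-ps10, Rpl28-ps3 and Rpl30-ps1 differed from each other by less than their own spread between libraries, as did neighbours from Rpl17-ps4 on.

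The most abundant copy moved in opposite ways within the knockout group. Rps2-ps10 was measured at 868, 759 and 712 CPM in wild-type libraries 1, 2 and 3 and 1102, 335 and 373 CPM in knockout libraries 1, 2 and 3. Knockout library 1 was the highest of the 6 and knockout libraries 2 and 3 were the lowest, so the groups overlap and the log2 fold change of -0.37 (adjusted p = 0.494, SE 0.40) did not pass the test. Without knockout library 1 it was -1.15, with an adjusted p of 0.000137. Without the filter on low counts the test called Rps2-ps10 lower with 3 knockout libraries too (log2 fold change -0.47, adjusted p = 0.0122). Over the 4 libraries with under 40% unmapped pairs, which keep knockout library 1 alone, it was called higher (0.44, adjusted p = 0.011). The direction of this copy therefore depends on which knockout library is read.

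Its parent did not follow that split. Rps2, which encodes a protein of the small subunit, stood at 672, 590.1 and 588 CPM in wild-type libraries 1, 2 and 3 and 879, 970.4 and 1046 CPM in knockout libraries 1, 2 and 3. Every knockout library was above every wild-type library, and the log2 fold change of 0.65 (adjusted p = 0.00217, SE 0.11) passed the test. The 2 genes together stood at 1539.5, 1349.5 and 1300.0 CPM in wild-type libraries 1, 2 and 3 and 1981, 1305 and 1419 CPM in knockout libraries 1, 2 and 3. The copy took 54.7% to 56.4% of that pair in the wild-type libraries, 55.6% in knockout library 1, and 25.7% and 26.3% in knockout libraries 2 and 3, while the pair as a whole was highest in knockout library 1 and otherwise overlapped between the groups. The copy is 99.4% identical to Rps2, and only 3.71% of its 50-base stretches occur in no other transcript.

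**Figure D1:**
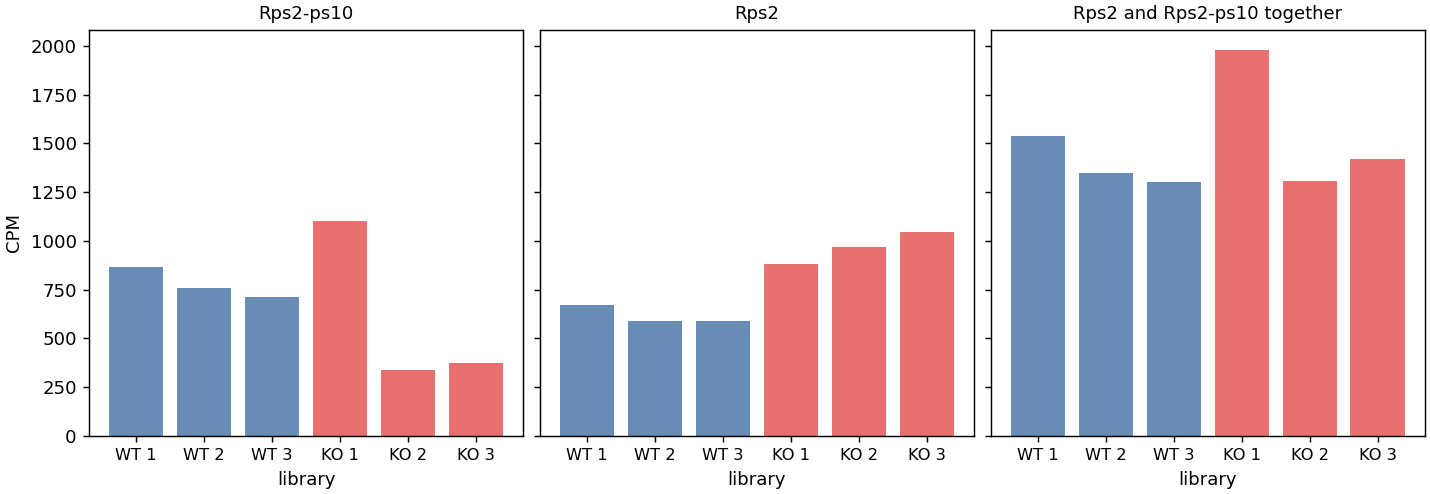
Level in CPM (y axis, from 0) of Rps2-ps10, of its parent Rps2 and of both together in each of the 3 wild-type (blue) and 3 knockout (red) libraries, 1 bar per library. Rps2-ps10 falls to 335 and 373 CPM in knockout libraries 2 and 3, where Rps2 is at its highest, and the sum of both stands at 1305 and 1419 CPM there.

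Of the next most abundant copies, Rpl3-ps1 and Rpl30-ps1 shared the split to a smaller degree. Rpl3-ps1 (chrX:13202571-13203780, plus strand), a copy of the large-subunit gene Rpl3, was at 192, 196 and 173 CPM in wild type and 216, 136 and 143 CPM in the knockout. Rpl30-ps1 (chr6:38376807-38377154, plus strand), a copy of Rpl30, was at 80.8, 86.4 and 75.7 CPM in wild type and 88.3, 51.4 and 67.7 CPM in the knockout. In both, knockout library 1 was the highest of the 6 and knockout libraries 2 and 3 were the lowest, and neither passed the test (log2 fold changes -0.18 and -0.23, adjusted p = 0.429 and 0.335). Without knockout library 1 both were called lower, Rpl3-ps1 at -0.43 (adjusted p = 0.00395) and Rpl30-ps1 at -0.45 (adjusted p = 0.0165).

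Rpsa-ps10 (chr3:150072658-150073542, minus strand), a copy of the laminin receptor gene Rpsa, varied within each group instead. It stood at 95.3, 85.5 and 38.6 CPM in wild type and 63.0, 129 and 81.1 CPM in the knockout. Wild-type library 3 was the lowest of all and knockout library 2 the highest, and the groups overlap (log2 fold change 0.32 (adjusted p = 0.497, SE 0.34)). Its parent Rpsa did not show the drop in wild-type library 3, with 2276, 2061 and 2063 CPM in wild type and 3369, 2317 and 2609 CPM in the knockout. Rpl28-ps3 (chr4:126069867-126070259, minus strand), which lies in an intron of Oscp1 on the opposite strand, was at 72.1, 70.2 and 65.6 CPM in wild type and 56.2, 104 and 95.0 CPM in the knockout. Knockout library 1 was the lowest and knockout libraries 2 and 3 were the highest, and the log2 fold change was 0.29 (adjusted p = 0.276, SE 0.20). Without knockout library 1 Rpl28-ps3 was called higher (0.51, adjusted p = 0.00194), and over the 4 libraries with under 40% unmapped pairs it was called lower (-0.37, adjusted p = 0.00991).

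**Figure D2:**
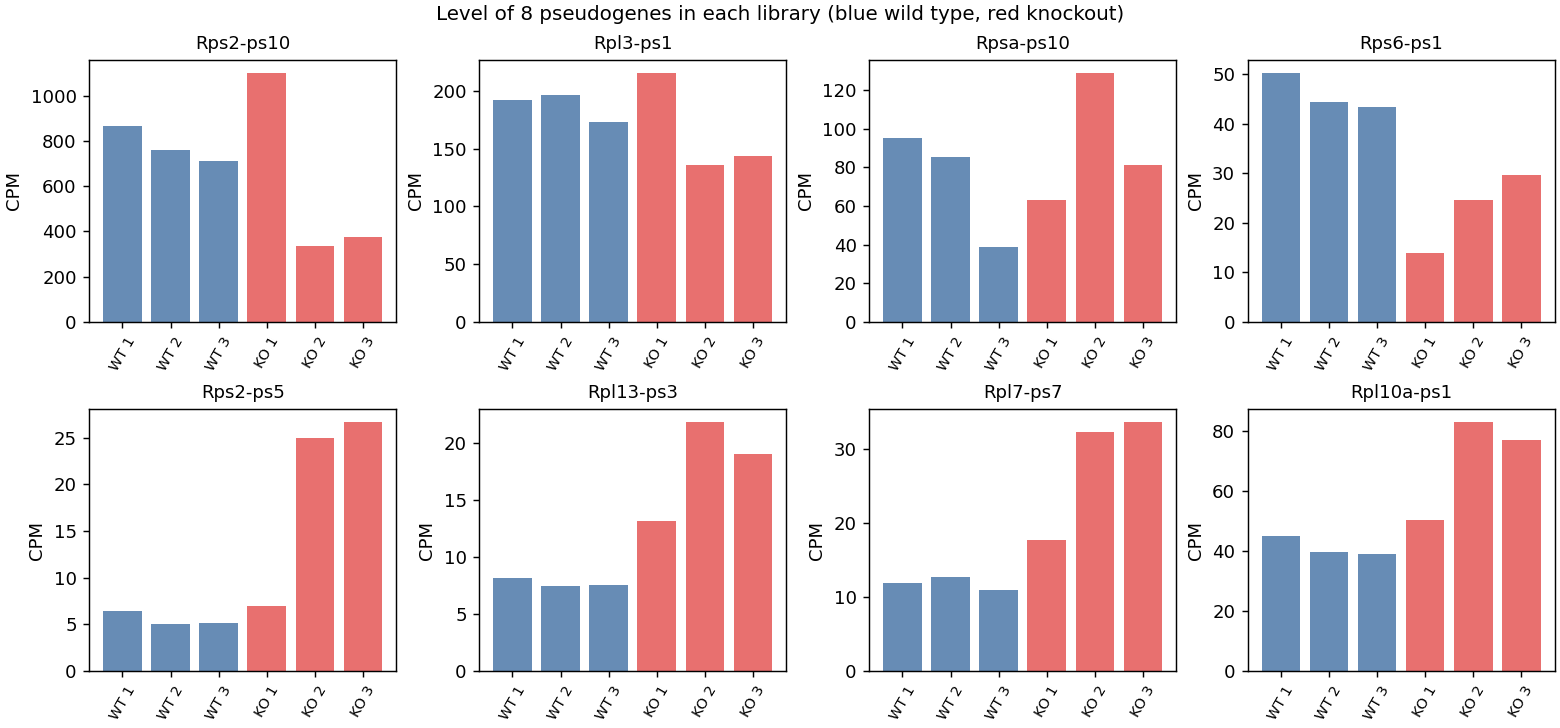
Level in CPM (y axes, each from 0) of 8 ribosomal protein pseudogenes in each of the 3 wild-type (blue) and 3 knockout (red) libraries, 1 bar per library. Rps2-ps10 and Rpl3-ps1 are highest in knockout library 1 and lowest in knockout libraries 2 and 3, Rps6-ps1 is lowest in knockout library 1, and in the lower row knockout libraries 2 and 3 are the highest.

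Across the copies the knockout tended to higher levels. In the fit over all 19900 genes that passed the filter on low counts, 162 of the 217 copies were tested, and 41 of them (25.3%) rose in the knockout while 1 fell. The background of that fit was 17.6% of all tested genes called higher and 18.4% called lower. Without a filter 35 of 217 (16.1%) were called higher and 2 lower, against 7.82% and 9.59% of all genes, and with a stricter filter 47 of 139 (33.8%) were higher and 1 lower, against 23.9% and 20.3%. The filter can keep a copy through the group in which it is high, so the 41 are a count of the tested copies and not of all 217. Among the 162 the log2 fold change was above 0 in 126, with a median of 0.40, beside a median of 0.05 over all genes. As a background of like genes, of the other processed pseudogenes 353 of 1941 tested (18.2%) rose and 31 fell, with a median of 0.42. The 79 cytosolic ribosomal protein genes themselves had a median of -0.11, and 4 rose, among them Rps2, Rpl13 and Rpl35, while 4 fell, among them Rpl13a, Rplp2 and Rps13. This count depends on the setting. Scaled by library totals alone, 9 of them rose and 2 fell, with DESeq2 4 rose and 18 fell, without a filter 3 rose and 18 fell, with the replicate number as a block 5 rose and 17 fell, and without knockout library 1 7 rose and 39 fell. The groups did not overlap in 59 tested copies with the knockout higher and in 6 with it lower, where all genes gave 24.5% and 26.0%.

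Of the 41 that rose, 12 did so by at least 2-fold, and their log2 fold changes ran from 0.37 to 1.82 with a median of 0.89. They trace back to 26 parent genes. The parent itself rose in the case of 8 of the copies, fell in none and did not pass the test for the other 33. The counts depend on single libraries. Without wild-type library 1, 18 of 166 tested copies (10.8%) were called higher, against 8.61% of all genes. Without wild-type library 2 there were 13 of 166 (7.83%, all genes 9.4%) and without wild-type library 3 13 of 167 (7.78%, all genes 8.76%). Without knockout library 2 there were 34 of 171 (19.9%, all genes 21.1%) and without knockout library 3 14 of 167 (8.38%, all genes 12.6%). Without knockout library 1, 65 of 170 (38.2%) were higher and 17 lower, against 20.6% and 22.7% of all genes. In 4 of these 6 fits the share of copies called higher was thus below that of all genes.

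The largest increase belonged to a second copy of Rps2. Rps2-ps5, on chromosome 14, stood at 6.46, 4.98 and 5.13 CPM in wild-type libraries 1, 2 and 3 and 6.93, 25.0 and 26.7 CPM in knockout libraries 1, 2 and 3. Knockout libraries 2 and 3 were far above the wild-type libraries, and knockout library 1 was only just above the highest of them. The log2 fold change was 1.82 (adjusted p = 0.0118, SE 0.43), or 3.53-fold. Of its parent's level per kilobase of exon it reached a log2 ratio of -5.58, -5.77 and -5.72 in wild type and -5.87, -4.17 and -4.18 in the knockout. The call was lost without wild-type library 3 (adjusted p = 0.0534) and without knockout library 3 (adjusted p = 0.0516), and with the unmapped share in the model the log2 fold change was 0.48 (adjusted p = 0.0611). Over the 4 libraries with under 40% unmapped pairs it was 0.26 (adjusted p = 0.316).

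Rpl18-ps1 (chr1:60900898-60901422, plus strand), which lies in an intron of Ctla4 on the same strand, was at 19.8, 21.6 and 18.3 CPM in wild type and 31.4, 53.9 and 53.6 CPM in the knockout. All knockout libraries were above all wild-type libraries, knockout library 1 by the least. The rise was 1.22 (adjusted p = 0.00217, SE 0.20) on the log2 scale. With the unmapped share in the model it was 0.72, and over the 4 libraries with under 40% unmapped pairs 0.59, and the call held in both. The host gene Ctla4, an inhibitory receptor of T cells, fell (log2 fold change -3.42 (adjusted p = 0.000844, SE 0.47)) and was at or below 0.962 CPM in every library.

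Rpl7-ps7 (chr5:82336851-82337649, plus strand) was at 11.8, 12.7 and 10.9 CPM in wild type and 17.7, 32.3 and 33.7 CPM in the knockout, and Rpl13-ps3 (chr14:58893506-58894129, plus strand) at 8.17, 7.44 and 7.59 CPM in wild type and 13.2, 21.9 and 19.1 CPM in the knockout. In both the groups did not overlap, and knockout libraries 2 and 3 were close to each other and well above knockout library 1. The log2 fold changes were 1.24 (adjusted p = 0.00374, SE 0.23) and 1.22 (adjusted p = 0.00151, SE 0.19). With the unmapped share in the model they were 0.66 and 0.81, and over the 4 libraries with under 40% unmapped pairs 0.52 and 0.71, and both calls held. Their parents Rpl7 and Rpl13, both of the large subunit, were instead highest in knockout library 1, at 2448 and 2249.6 CPM, against 1627 and 1781 CPM for Rpl7 and 1762 and 1828 CPM for Rpl13 in the other two. Rps24-ps3 (chrX:79195047-79195448, plus strand), a copy of the small-subunit gene Rps24, was at 13.6, 8.47 and 9.70 CPM in wild type and 13.7, 26.9 and 34.0 CPM in the knockout. Knockout library 1 exceeded wild-type library 1 by under 1 CPM, and the log2 fold change was 1.23 (adjusted p = 0.0158, SE 0.31), a call that was lost without wild-type library 2, wild-type library 3 or knockout library 3 (adjusted p = 0.064, 0.0715 and 0.0669). It was also lost with the N_noFeature share as a covariate (adjusted p = 0.0832), with the unmapped share in the model (log2 fold change 0.47, adjusted p = 0.172) and over the 4 libraries with under 40% unmapped pairs (0.31, adjusted p = 0.299).

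Rpl10a-ps1, the copy identical to its parent, was at 45.1, 39.7 and 39.1 CPM in wild type and 50.5, 83.1 and 77.0 CPM in the knockout. It rose with a log2 fold change of 0.76 (adjusted p = 0.00996, SE 0.17), a call that was lost without wild-type library 2 (adjusted p = 0.0509) and without wild-type library 3 (adjusted p = 0.0524). Over the 4 libraries with under 40% unmapped pairs it was lost too (log2 fold change 0.23, adjusted p = 0.111), and with the unmapped share in the model it held at 0.33 (adjusted p = 0.0299). Its parent Rpl10a, a protein of the large subunit, was at 901, 811 and 775 CPM in wild type and 1061, 973 and 983 CPM in the knockout, and its log2 fold change of 0.28 (adjusted p = 0.0531, SE 0.10) did not pass. None of the 50-base stretches of this copy is its own among annotated transcripts, so its pairs cannot be told from those of Rpl10a by its transcript sequence.

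Rps6-ps1, a copy of the small-subunit gene Rps6, was the only one called lower. It stood at 50.4, 44.4 and 43.5 CPM in wild-type libraries 1, 2 and 3 and 13.9, 24.7 and 29.6 CPM in knockout libraries 1, 2 and 3. Every knockout library was below every wild-type library, and knockout library 1 was the lowest, which is the reverse of Rps2-ps10. The log2 fold change was -1.02 (adjusted p = 0.0102, SE 0.23), a 2.03-fold lower level, and the call held under each setting that was run. Over the 4 libraries with under 40% unmapped pairs it was -1.79, and with the unmapped share in the model -1.64. Rps6 itself was at 1261, 1098 and 1079 CPM in wild type and 1045, 872 and 994 CPM in the knockout and did not pass (log2 fold change -0.24 (adjusted p = 0.121, SE 0.11)). Rps6 has 3 other copies among the members. Rps6-ps3, in an intron of Rab39 on the same strand, was at 13.1, 11.6 and 11.1 CPM in wild type and 12.3, 21.2 and 27.3 CPM in the knockout and rose (0.76 (adjusted p = 0.0454, SE 0.25)), although its groups overlap through knockout library 1. That call was lost with the replicate number as a block (adjusted p = 0.0572), without any library but knockout library 1 (adjusted p = 0.0659 to 0.179) and with either covariate (0.57 with the N_noFeature share, adjusted p = 0.216, and 0.12 with the unmapped share, adjusted p = 0.627). Over the 4 libraries with under 40% unmapped pairs Rps6-ps3 turned to -0.028 (adjusted p = 0.894). Rps6-ps4, identical to its parent, was at 9.58, 9.08 and 9.62 CPM in wild type and 10.2, 6.87 and 6.58 CPM in the knockout, and its log2 fold change of -0.25 (adjusted p = 0.309, SE 0.18) did not pass. Rps6-ps2, with a log2 fold change of 0.08 (adjusted p = 0.788, SE 0.20), did not pass either. The differences between these copies were not tested.

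The calls were unevenly spread over the parents, and no difference between families was tested. The shares to set beside them are 25.3% of all tested copies and 17.6% of all tested genes called higher. Called lower were 0.617% and 18.4%. Of the 8 copies of Rpsa, 7 were tested and 5 rose, with log2 fold changes from 0.73 (Rpsa-ps12) to 0.96 (Rpsa-ps1). The exceptions were the most abundant, Rpsa-ps10, and Rpsa-ps11 (0.74 (adjusted p = 0.0839, SE 0.30)). Of the 7 copies of Rpl17, 6 were tested and 5 rose, among them Rpl17-ps4 (chr4:63895545-63896099, minus strand) at 53.3, 41.3 and 40.8 CPM in wild type and 49.1, 67.8 and 86.0 CPM in the knockout. Its groups overlap through knockout library 1, and its call (log2 fold change 0.58 (adjusted p = 0.0470, SE 0.20)) was lost when any library but knockout library 1 was left out (adjusted p = 0.0595 to 0.193). It was also lost with the replicate number as a block (0.56, adjusted p = 0.0636), with the N_noFeature share as a covariate (0.41, adjusted p = 0.244), with the unmapped share in the model (0.17, adjusted p = 0.483) and over the 4 libraries with under 40% unmapped pairs (0.06, adjusted p = 0.776). Of the 8 copies of Rps2, 7 were tested and 4 rose, and all 3 copies of Rpl13 rose. None of the 11 tested copies of Rpl31, of the 9 of Rpl19, or of the 6 each of Rpl35a, Rps15a and Rpl30 passed in either direction under edgeR. Of these 38, 7 had an unadjusted p under 0.05, and DESeq2 called 2. Not passing does not set these families apart. The median log2 level of the Rpl19 copies relative to the wild-type mean was 0.04, 0.74 and 0.97 in knockout libraries 1, 2 and 3, beside 0.54, 0.88 and 0.97 for those of Rpsa. Among the 22 parents with at least 3 tested copies, 12 had no copy called higher.

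Among the abundant copies, Rps10-ps1 (chr3:95622278-95622772, plus strand) was at 40.3, 35.7 and 32.8 CPM in wild type and 43.1, 64.3 and 68.2 CPM in the knockout, and Rpl36-ps12 (chr6:108140120-108140509, minus strand) at 51.3, 46.3 and 42.2 CPM in wild type and 58.5, 62.7 and 70.0 CPM in the knockout. Both rose with no overlap (log2 fold changes 0.69 (adjusted p = 0.0141, SE 0.17) and 0.45 (adjusted p = 0.0124, SE 0.11)). Both calls were lost without wild-type library 2, wild-type library 3 or knockout library 3 (adjusted p = 0.0559 to 0.0992), and with the N_noFeature share as a covariate (adjusted p = 0.0704 and 0.0843). They were also lost with the unmapped share in the model (log2 fold changes 0.29 and 0.34, adjusted p = 0.0844 and 0.0658) and over the 4 libraries with under 40% unmapped pairs (0.18 and 0.26, adjusted p = 0.237 and 0.0853), and that of Rpl36-ps12 without a filter (adjusted p = 0.0599). Rpl36-ps12 lies in an intron of Sumf1 on the same strand, and Sumf1, a sulfatase-modifying enzyme, fell (log2 fold change -0.82 (adjusted p = 0.000594, SE 0.10)), the opposite way. The remaining 3 of the 12 most abundant did not pass. Rps16-ps2 (chr5:129128077-129128517, minus strand), identical to Rps16, was at 50.2, 47.2 and 42.0 CPM in wild type and 41.0, 42.6 and 41.7 CPM in the knockout, Rpl31-ps11 (chr3:94604408-94604784, minus strand) at 47.9, 43.2 and 39.5 CPM in wild type and 54.2, 35.3 and 44.6 CPM in the knockout, and Rpl9-ps7 (chr2:70458982-70459560, plus strand) at 42.9, 36.7 and 39.7 CPM in wild type and 38.8, 43.4 and 50.4 CPM in the knockout. Their groups overlap, with log2 fold changes of -0.15, 0.04 and 0.15 and adjusted p of 0.234, 0.861 and 0.337.

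Among the copies with the smallest change, of those averaging at least 0.5 CPM, were Rpl36a-ps2 (chr3:145879020-145879340, plus strand), Rpl30-ps8 (chr12:99047230-99047574, plus strand) and Rps15a-ps8 (chr4:53791070-53791456, minus strand). Rps15a-ps8 was at 2.40, 2.22 and 2.59 CPM in wild type and 2.57, 2.17 and 2.58 CPM in the knockout, all within 2.17 to 2.59 CPM. Rpl36a-ps2 and Rpl30-ps8 had log2 fold changes of 0.01 (SE 0.23) and -0.01 (SE 0.19), and the knockout libraries of Rpl36a-ps2 spread from 4.94 to 9.66 CPM.

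Beside the parents, the copies shifted in knockout libraries 2 and 3. On the scale of CPM per kilobase of exon, the median log2 ratio of a tested copy to its parent was -5.36, -5.30 and -5.36 in wild-type libraries 1, 2 and 3 and -5.39, -4.77 and -4.75 in knockout libraries 1, 2 and 3. Knockout library 1 thus stood with wild type, and the other 2 stood above. The ratio was higher on average in the knockout for 130 of the 162 tested copies, with a median change of 0.51. All 41 that rose are among them, but these were selected by their own level, which is part of the ratio. The ratio exceeded every wild-type library in both knockout libraries 2 and 3 for 113 copies. In knockout library 1 it lay within the wild-type range for 77, above it for 37 and below it for 48. Rps2-ps10 and Rpl30-ps1 alone exceeded their parent per kilobase in any library. The levels of these ratios rest on the merged length of all annotated exons, which is the same in each library. Rpl30-ps1 did so in all 6, with log2 ratios of 1.86, 2.01 and 1.92 in wild type and 1.70, 1.24 and 1.45 in the knockout. These ratios divide by 3020 merged exon bases for Rpl30 and by 348 for Rpl30-ps1, and ratios with other lengths were not run. In CPM the copy was below its parent in every library, Rpl30 standing at 193, 186 and 174 CPM in wild type and 236, 189 and 216 CPM in the knockout.

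**Figure D3:**
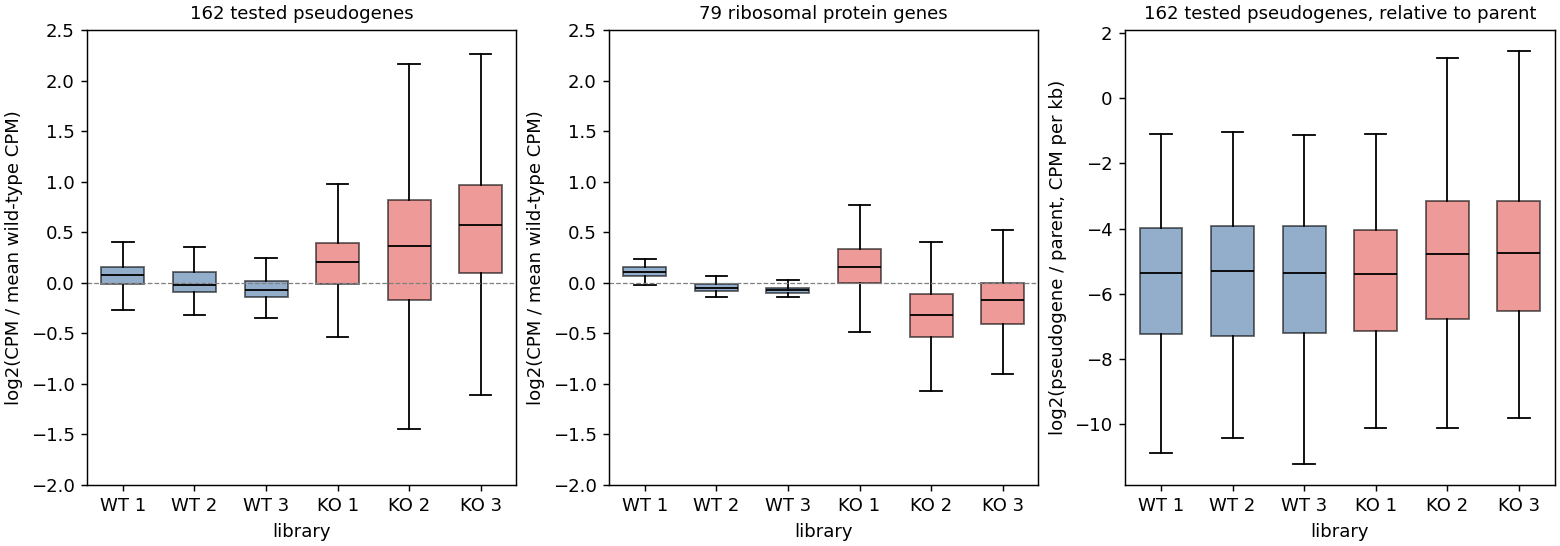
Boxes (quartiles and median, whiskers to the last value within 1.5 quartile ranges, outliers not drawn) over the 162 tested pseudogenes (left) and the 79 cytosolic ribosomal protein genes (middle) of log2 CPM relative to the wild-type mean, and over the 162 pseudogenes of the log2 ratio to the parent per kilobase (right), in 3 wild-type (blue) and 3 knockout (red) libraries. The pseudogenes stand highest in knockout libraries 2 and 3 and their parents lowest there, and the median ratio moves from -5.39 in knockout library 1 to -4.77 and -4.75 in knockout libraries 2 and 3.

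The same split was counted gene by gene. Knockout libraries 2 and 3 were above all wild-type libraries with knockout library 1 below both in 79 of the 162 tested copies (48.8%), in 50.9% of the other tested processed pseudogenes and in 19.8% of all tested genes. Of the 79 ribosomal protein genes 5 had this order. The reverse order had knockout libraries 2 and 3 below all wild-type libraries and knockout library 1 above both. It was found in 48 of the ribosomal protein genes (60.8%), in 24 of the copies (14.8%) and in 19.1% of all genes. Of the other tested processed pseudogenes 7.37% had it. Of the 41 copies that rose, 35 had knockout library 1 below both others, and in 33 it was still above all wild-type libraries. Among all genes that rose, 54.1% had knockout library 1 below both others. For the other processed pseudogenes that rose it was 314 of 353 (89.0%), so this order is not particular to the copies.

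The 2 libraries with the shift are the 2 with 54.6% and 52.7% of their pairs unmapped. With the unmapped share as a covariate, 14 of the 162 copies (8.64%) were called higher, against 11.7% of all genes, and 12 of these 14 were among the 41. Over the 4 libraries with under 40% unmapped pairs, 15 of 178 tested copies (8.43%) were called higher, against 13.9% of all genes, and 10 of these were among the 41. The knockout then has 1 library, which is assumed to vary like the wild-type libraries. With the N_noFeature share as a covariate, 17 copies (10.5%) were called higher, against 14.2% of all genes. Why the libraries differ in these shares was not tested.

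The copies were also read by how much of their sequence is their own. Of the 33 copies with under 10% of their 50-base stretches unshared, 4 of 31 tested rose. In the next class, 10% to under 50%, 21 of 65 tested rose, and between 50% and 90% 16 of 58 rose and 1 fell. With 90% or more, 8 of 39 could be tested, and edgeR called 0 of them, with 2 at an unadjusted p under 0.05 and 0 called by DESeq2. The background was 17.6% of all tested genes called higher and 18.4% called lower. Among the other processed pseudogenes it was 18.2% and 1.60%. The median log2 level relative to the wild-type mean, over all copies of a class, was 0.19, -0.13 and -0.07 in knockout libraries 1, 2 and 3 for the least distinct class. It was 0.21, 0.45 and 0.60 for the class from 10% and 0.31, 0.40 and 0.68 for that from 50%. The reverse order of libraries, seen in Rps2-ps10, was found in 13 of the 31 tested copies of the least distinct class (41.9%), in 7 of 65 (10.8%) and 3 of 58 (5.17%) of the next classes and in 1 of the 8 most distinct. These shares are descriptions, and levels, length and number tested differ between the classes.

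**Figure D4:**
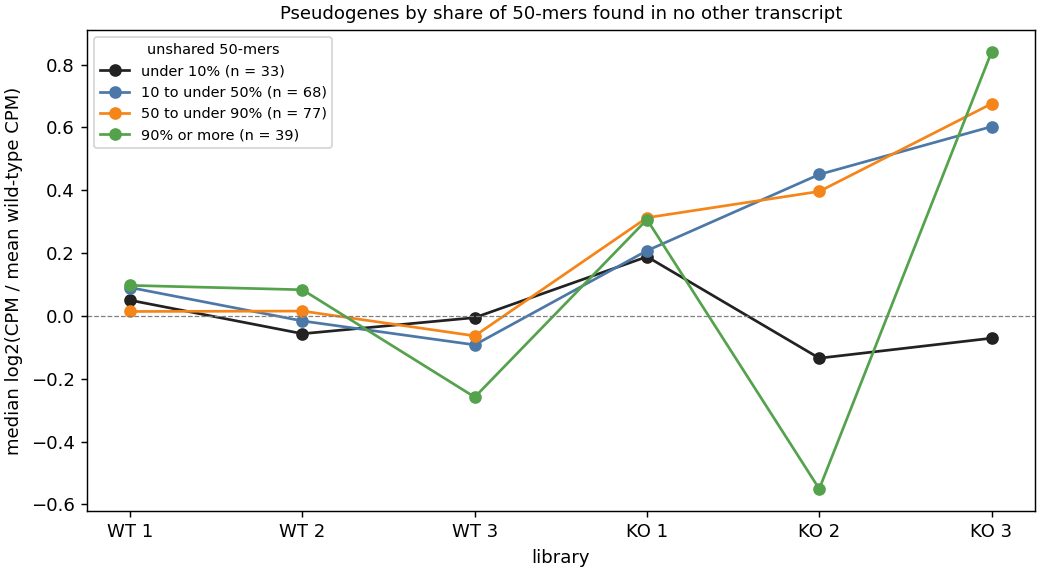
Median log2 level relative to the mean of the wild-type libraries (y axis) in each of the 6 libraries (x axis), with 1 line for each class of pseudogenes by the share of their 50-base stretches found in no other transcript. The classes from 10% to under 90% are highest in knockout libraries 2 and 3, the class under 10% falls below 0 in both, and the class of 90% or more drops to -0.55 in knockout library 2 and rises to 0.84 in knockout library 3. The copies of that last class have a median level of only 0.108 CPM. In knockout libraries 2 and 3, 3 pairs correspond to 0.119 and 0.136 CPM.

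The copies identical to their parent often had the reverse order of knockout libraries. Of the 14, 13 were tested, 7 of them had that order, and Rpl10a-ps1 was the only one to pass. Of the other 12, 2 stood at an unadjusted p under 0.05, and DESeq2 called 1. Rps12-ps3 (chr19:59322290-59322783, plus strand), listed as protein-coding and lying in an intron of Pdzd8 on the opposite strand, was at 2.595, 2.46 and 2.46 CPM in wild type and 3.97, 0.632 and 0.774 CPM in the knockout (log2 fold change -0.45 (adjusted p = 0.570, SE 0.59)). Its parent Rps12 did not fall in the same way, at 1673, 1429.7 and 1419 CPM in wild type and 1841, 1289 and 1454 CPM in the knockout. Rpl31-ps8 was at 14.7, 13.3 and 13.1 CPM in wild type and 15.7, 7.58 and 10.3 CPM in the knockout, with a log2 fold change of -0.29 (adjusted p = 0.358, SE 0.23). In both copies knockout library 1 was the highest of the 6 and knockout libraries 2 and 3 were the lowest. These 2 were chosen after their values were seen.

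The rare copies followed another order of libraries. The 55 copies too low to be tested summed to 6.71, 7.47 and 5.75 CPM in wild type (mean ± SD 6.64 ± 0.863, n = 3) and to 9.27, 5.53 and 13.5 CPM in knockout libraries 1, 2 and 3. Knockout libraries 3 and 1 were above wild type and knockout library 2 was below it, which is the order of the N_noFeature shares of the knockout libraries (18.9%, 14.2% and 9.91%). The 39 copies with 90% or more of their sequence unshared summed to 13.0, 12.7 and 10.8 CPM in wild type and to 13.5, 11.6 and 19.4 CPM in the knockout, with knockout library 3 again the highest. Of the 85 copies at or below 1 CPM, knockout library 3 was the highest of the 6 in 46. Knockout library 2 was the lowest, or tied for the lowest, in 31. The full order 3, 1, 2 among the knockout libraries held in 33 of these 85 and in 16 of the 132 more abundant copies. How often other genes of low level have these orders was not counted.

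**Figure D5:**
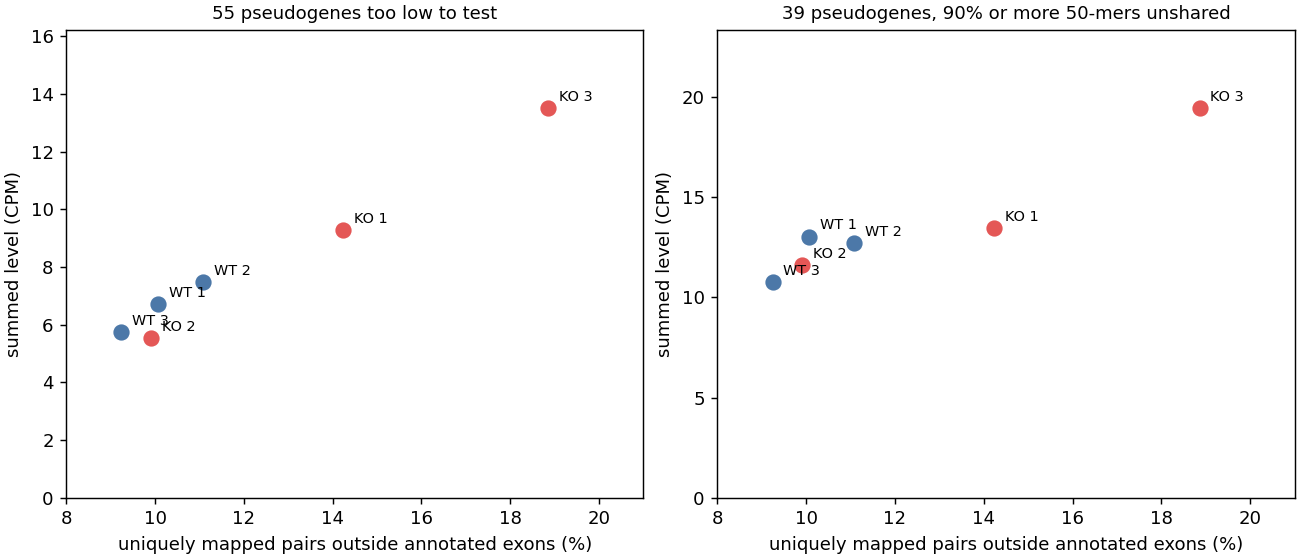
Summed level in CPM (y axes, from 0) of the 55 pseudogenes too low to be tested (left) and of the 39 with 90% or more of their 50-base stretches unshared (right), against the percentage of uniquely mapped pairs outside annotated exons (x axes), 1 point per library, wild type in blue and knockout in red. Knockout library 3, with 18.9% of pairs outside exons, is highest in both, at 13.5 and 19.4 CPM, and knockout library 2, with 9.91%, lies among or below the wild-type libraries.

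In the single rare copies given here knockout library 2 was also the lowest, with few counts. Rps19-ps8 (chr5:108055495-108055916, minus strand), of which 88.2% of the 50-base stretches are unshared, was at 0.193, 0.344 and 0.294 CPM in wild type and 0.878, 0.0395 and 0.860 CPM in the knockout (log2 fold change 1.09 (adjusted p = 0.296, SE 0.77)). Knockout library 2 was below and knockout libraries 1 and 3 were above all wild-type libraries, with library 1 just above library 3. Rps10-ps3 (chr4:3978251-3978750, minus strand), with no shared stretch, was at 0.0828, 0.106 and 0.0802 CPM in wild type and 0.130, 0 and 0.559 CPM in the knockout and was not tested. At this depth a level under about 0.1 CPM rests on 1 to 3 pairs. Both were chosen after their values were seen.

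The copies were also set out by their position. Of the 217 copies, 58 lie in introns of protein-coding genes, 19 on the strand of the host gene and 39 on the other. On the same strand 8 of 16 tested rose and on the opposite strand 7 of 34. Outside such introns 26 of 112 rose and 1 fell. Of all tested genes 17.6% rose and 18.4% fell, and differences between these places were not tested. For the 15 intronic copies that rose, the host gene rose in 4 cases (Wwp2, Flg, Heph and Iqsec1), fell in 5 (Sumf1, Ctla4, Rab39, Tcf12 and Usp32) and did not pass in 6. Of all tested protein-coding genes 19.0% rose and 22.6% fell. Since the counts do not use strand, pairs from an intron of the host and from the copy cannot be separated by strand. Exons of other genes cover part of 7 copies, 6 of them copies of Rpl19, and edgeR called 0 of these 7, with 5 at an unadjusted p under 0.05 and 2 called by DESeq2. By class of annotation, 2 of the 6 tested transcribed processed pseudogenes rose, Rps26-ps1 and Rps2-ps9, while of the 4 tested copies listed as protein-coding edgeR called 0, with 0 at an unadjusted p under 0.05 and 0 called by DESeq2. Rps26-ps1 (chr8:107439131-107439579, minus strand), in an intron of Wwp2 on the opposite strand, was at 12.9, 11.3 and 11.5 CPM in wild type and 12.5, 36.1 and 32.7 CPM in the knockout. Knockout libraries 2 and 3 stood far above, but knockout library 1 lay within the wild-type range, and the log2 fold change was 1.18 (adjusted p = 0.0236, SE 0.33). The call was lost without any wild-type library or knockout library 3 (adjusted p = 0.0691 to 0.0924) and with the N_noFeature share as a covariate (1.24, adjusted p = 0.0655). It was also lost with the unmapped share in the model (0.18, adjusted p = 0.274) and over the 4 libraries with under 40% unmapped pairs (0.0076, adjusted p = 0.971).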

How the data were processed

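Each deposited table lists raw counts of pairs for every gene, in the layout of STAR's gene counts. The submitters' processing notes name STAR 2.6.0c, FastQC, DESeq2 and GRCm38. In such tables a pair that maps to several places (3.12% to 4.39% of pairs) or touches exons of several genes is counted for none. The unstranded column was used, since the first stranded column held 50.1% to 50.2% of stranded counts. The 4 rows that name no gene stayed out of library sizes. Of 54146 gene rows, 54079 were matched to GENCODE M21 for symbols, positions and transcript sequences, and 67 were not.

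The counts were fitted in R 4.3.3 by edgeR 4.0.16 (filterByExpr, then TMM, glmQLFit and glmQLFTest), with Benjamini-Hochberg adjustment over 19900 genes and a threshold of 0.05. "Rose" and "fell" mean past that threshold. CPM uses TMM factors. Ratios to the parent are log2 of CPM per kilobase of exon plus 0.05. The steps were tested on simulated data. Alternatives were DESeq2 1.42.0, RLE factors, library totals, 2 other filters, a stranded column, each replicate left out, the replicate block, 2 covariates and subsets of libraries or members.

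The members and lists were chosen with earlier results of these data known. The rule for named pseudogenes took the 12 with the highest mean CPM, up to 6 higher and 6 lower past the threshold with a mean of at least 0.5 CPM, no overlap and the largest change, the 4 with the smallest change, and those at the read limit, with their parents and host genes. Some of the genes this rule takes are not reported here. Others named were chosen after their values were seen.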

Additional observations from a re-analysis of the deposited data

How the results depend on the processing

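Of the pseudogenes, 41 were called higher and 1 lower. Their share called higher was 25.3%, against 17.6% of all tested genes. It was 16.1% without a filter (35 of 217, all genes 7.82%), 21.3% with DESeq2 (36 of 169 with an adjusted p, all genes 14.3%) and 33.8% with the stricter filter (47 of 139, all genes 23.9%). With library totals 46 were higher (28.4%), with the stranded column 40 of 147 (27.2%, all genes 20.6%) and with RLE factors 41 (25.3%, all genes 17.7%). Of the 41, 10 were lost without a filter and 8 with DESeq2. Their number called lower was 2 with DESeq2 and 2 without a filter. With the N_noFeature share as a covariate 17 were higher, with the unmapped share 14, and over the libraries with under 40% unmapped pairs, a setting chosen after seeing the data, 15 were higher and 2 lower. Among copies with at least 50% of their 50-base stretches unshared, also chosen after seeing the data, 16 of 66 were higher. Leaving out 1 library at a time gave 13 to 65 higher and 1 to 17 lower pseudogenes, 1 to 7 higher and 1 to 39 lower ribosomal protein genes, and 99 to 693 higher and 9 to 86 lower other processed pseudogenes. The replicate numbers did not pair the samples (correlations of same-numbered deviations 0.05, -0.21 and -0.24). With the replicate number as a block, 31 pseudogenes were higher (19.1%, all genes 15.5%) and 1 lower, and 5 ribosomal protein genes were higher and 17 lower. Not every replicate correlated best with its own number. Of the ribosomal protein genes, 18 were lower with DESeq2 and 18 without a filter. With library totals and with the stranded column 9 were higher and 2 lower, and with the stricter filter 7 and 2. With the N_noFeature share 1 was higher and edgeR called 0 lower, with the unmapped share 13 were higher and 2 lower, and over the libraries with under 40% unmapped pairs 17 and 2. Of the other processed pseudogenes, 56 were lower without a filter and 18 with the stranded column. They numbered 149 higher and 16 lower with the N_noFeature share, 90 higher with the unmapped share, and 107 higher and 92 lower over the libraries with under 40% unmapped pairs. The log2 ratio of the summed level, knockout over wild type, was 0.13, and 0.31 without Rps2-ps10. For the 21 named pseudogenes, 256 of the alternative fits kept direction and side of the threshold, 35 lost and 5 gained a call, and 40 turned the direction. All 40 belong to 11 pseudogenes that did not pass the test. With the unmapped share as a covariate the log2 fold change turned for Rps2-ps10 (0.34), Rpl3-ps1 (0.15), Rpsa-ps10 (-0.22), Rpl28-ps3 (-0.24), Rpl30-ps1 (0.085) and Rpl9-ps7 (-0.0090). Over the libraries with under 40% unmapped pairs it turned for Rps2-ps10 (0.44), Rpl3-ps1 (0.14), Rpsa-ps10 (-0.28), Rpl28-ps3 (-0.37), Rpl30-ps1 (0.061) and Rpl9-ps7 (-0.098). With DESeq2 it turned for Rpl31-ps11 (-0.025), Rpl36a-ps2 (-0.058) and Rps15a-ps8 (-0.041), and without a filter for the same 3 (-0.054, -0.090 and -0.068). With the N_noFeature share it turned for Rpl31-ps11 (-0.12), Rpl36a-ps2 (-0.35) and Rps15a-ps8 (-0.068). Rps16-ps2 turned with the stranded column (0.0075). Rpl30-ps8 turned with library totals (0.047), the stricter filter (0.035) and the stranded column (0.080). Rpl36a-ps2 turned with the replicate block (-0.038). Leaving out 1 library at a time, the log2 fold change ran over -0.069 to 0.54 for Rpsa-ps10, -0.13 to 0.14 for Rpl31-ps11, -0.20 to 0.21 for Rpl36a-ps2, -0.11 to 0.067 for Rpl30-ps8 and -0.061 to 0.053 for Rps15a-ps8. The cause of these changes was not tested. The ratio to the parent per kilobase of positions found once in the genome was not run, since no genome sequence was used here. The limits are the shallow and unlike knockout libraries, the reads shared between copies and parents, and the 55 copies too low to test.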

Other observations

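Several symbols did not match the closest ribosomal protein gene by sequence. Rpl36a-ps3 (chr6:136488807-136489127, plus strand) is 99.7% identical to Rpl36al, a retained gene copy that encodes a ribosomal protein. It was at 16.9, 16.7 and 16.5 CPM in wild type and 14.1, 16.0 and 15.5 CPM in the knockout. Every knockout library was below every wild-type library, yet the log2 fold change was only -0.13 (adjusted p = 0.359, SE 0.11) and did not pass edgeR's test. Rps4l-ps was closest to Rps4x, with an identity of 80.8%, the lowest of the 216 that could be aligned. Rps7-ps2 aligned to no ribosomal protein gene over at least 100 bases.

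Rps15a-ps7 (chr2:152185291-152185682, minus strand) varied within wild type more than between the groups. It was at 4.197, 9.93 and 9.54 CPM in wild type and 9.60, 9.24 and 15.5 CPM in the knockout. Wild-type library 1 was below the other 5, knockout library 3 was above them, and the log2 fold change was 0.53 (adjusted p = 0.233, SE 0.33). Its parent Rps15a was at 828, 777 and 732 CPM in wild type and 762, 426 and 461 CPM in the knockout and did not share the low value in wild-type library 1. These copies were chosen after their values were seen.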
